A study of Mus musculus with 298 samples.

Results

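Blood drawn after the first and after the second week of nilotinib was compared in each of 7 leukaemic mice, and the change was set beside the change over the same week in 5 untreated leukaemic mice. The libraries were chosen by their labels alone: all mice of the TKI cohort at weeks 7 and 8, which gave 14 of the 298 libraries in the series, and the 10 libraries of the untreated CML cohort mice (labelled TET_OFF_B) sampled at both weeks. The sixth CML mouse had no week 8 library. All mice were C57BL/6 of genotype tTA+/-, BCR-ABL+/-, carrying a tetracycline transactivator (SCLtTA) and a human BCR-ABL transgene under its control. They were of both sexes and 6 to 8 weeks old at the start, and blood was taken weekly. While the animals drank tetracycline water (0.5 g/L) the oncogene was off, and its removal at week 0 switched it on in the CML and TKI cohorts. TKI mice in addition received nilotinib by gavage, 50 mg/kg daily for 4 weeks from week 6, whereas CML mice received no drug. The 3 Control mice (6 libraries) stayed on tetracycline, and the 4 TOTO mice (8 libraries) went back on tetracycline at week 6. Control and TOTO libraries entered the statistical model to estimate the spread between mice. RNA came from whole blood, although the labels give PBMC as the tissue, and ribosomal RNA was depleted. In this line the transactivator is driven by regulatory sequence of the SCL gene, which is active in blood stem and progenitor cells.

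Chronic myeloid leukaemia is driven by the BCR-ABL fusion kinase, which expands the myeloid lineage and sends maturing granulocytes and basophils into the blood. Nilotinib blocks the kinase by binding its ABL part. Developing neutrophils make their granule proteins in order: myeloperoxidase and proteinase 3 in promyelocytes, lactoferrin, lipocalin 2 and cathelicidin in myelocytes and metamyelocytes, and gelatinase and surface receptors in the last steps. Basophils carry their own proteases, among them mast cell protease 8 and the serine protease Prss34.

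Between weeks 7 and 8 of the TKI cohort the transgene transcript fell in 7 of 7 mice, and with it fell transcripts of secondary (specific) neutrophil granules and of basophils. In untreated CML mice no gene of either list fell past the threshold, and neither did the transgene. That equals the background as deposited, where 0 of 10065 genes fell in CML mice, while rescaled 1.05% of all genes did. For the transgene, the granule genes Ngp and Camp and the basophil genes Mcpt8 and Prss34, some CML mice started too low to leave much room for a fall. Values are TPM, transcript abundances scaled to a common sum per library, and each change is the week 8 minus the week 7 value of log2(TPM + 1) in the same mouse. That scale understates the change of genes near or under 1 TPM. Because most genes moved the same way between weeks, every change was computed a second time after each library's TPM had been divided by its median-ratio size factor. These values are called rescaled. A gene passed at a limma adjusted p of 0.05 over all genes tested.

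The transcript of the human BCR-ABL1 transgene stood at 11.6, 30.2, 10.0, 7.75, 4.88, 9.92 and 11.5 TPM at week 7 in TKI mice 502, 507, 508, 511, 512, 513 and 514. A week later the same mice had 3.31, 3.52, 4.45, 3.84, 1.96, 2.37 and 4.96 TPM. The 7 animals, spread over a wide range at week 7, thus lay within 1.96 to 4.96 TPM at week 8, and the steepest drop was in the animal with the highest starting level. In CML mice the transcript went from 8.65 to 9.63 TPM (mouse 480), from 2.46 to 10.8 (484), from 4.23 to 3.02 (541) and from 0.282 to 1.92 (542). CML mouse 487 was at 0 TPM in both weeks, against its label, and some of the results that rest on the CML mice are given with and without it. In Control mice the transcript was 0 in both weeks. The mean log2 change was -1.42 ± 0.68 (SD, n = 7) in TKI mice, lower in 7 of 7 (two-sided exact sign-flip p = 0.015625, the smallest that 7 mice allow). It was 0.54 ± 0.90 (SD, n = 5) in CML mice (exact sign-flip p = 0.375). The cohorts did not overlap, and differed by -1.97 (exact permutation p = 0.0012626, the smallest possible), or by -2.10 without mouse 487 (exact permutation p = 0.0030303, the smallest possible). On rescaled values the difference was -1.80 with and -1.96 without it.

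The labels name 3 batches, each mouse in 1 of them. In 2022_A the transgene changed by -1.59 ± 0.84 (SD, n = 4) in TKI mice and by 1.77 in the only CML mouse. In 2022_B the change was -1.20 ± 0.44 (SD, n = 3) in TKI mice, and the 2 CML mice changed by 0 and 1.19. The third batch, 2021_E, held CML mice but no TKI mouse. In both shared batches every TKI mouse therefore lay below every CML mouse. The 2 CML mice of 2022_B were 487, which had no transcript in either week, and 542. Both started too low at week 7 for a fall as large as in the TKI mice. The order within 2022_B could thus hardly have come out otherwise. Human BCR and human ABL1, which share sequence with the fusion and cannot be read apart from it, fell by 1.42 ± 0.14 (SE) and 1.62 ± 0.16 (SE). The mouse's own Bcr and Abl1 changed by -0.23 ± 0.13 (SE, limma adjusted p = 0.23) and -0.38 ± 0.14 (SE, adjusted p = 0.094) and did not pass.

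**Figure D1:**
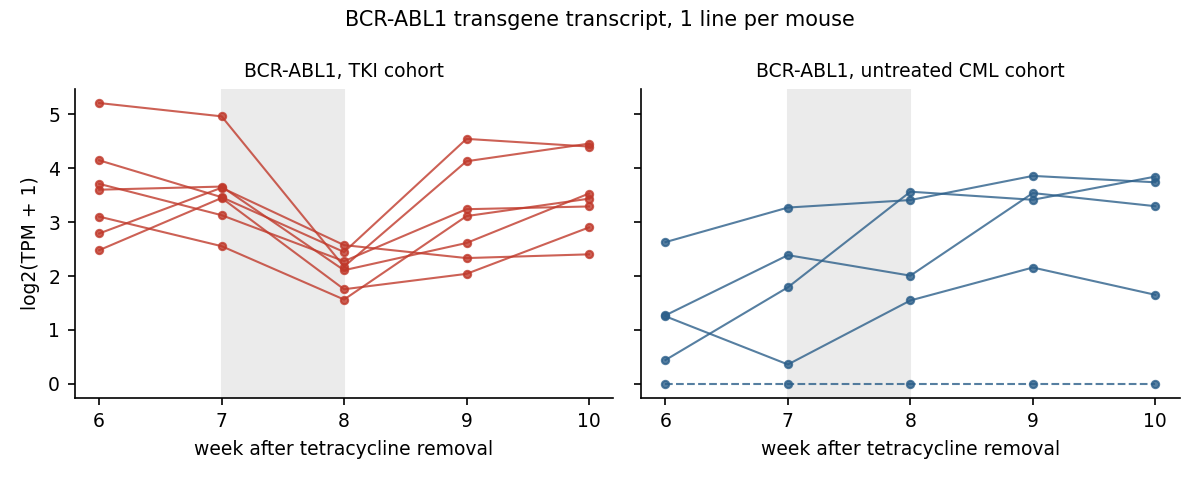
BCR-ABL1 transgene transcript as log2(TPM + 1), as deposited, at weeks 6 to 10 after tetracycline removal, with 1 line per mouse: 7 TKI mice on the left, 5 untreated CML mice on the right, the dashed line being CML mouse 487 and the grey band the step from week 7 to 8. All 7 TKI lines descend within the band, to between 1.96 and 4.96 TPM.

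The transcript stood higher again at week 10, the last week of dosing, when the TKI mice ranged from 4.29 to 21.0 TPM. The mean log2 change from week 8 to week 10 was 1.36 ± 0.21 (SE), and from week 6 to week 7 it was -0.03 ± 0.28 (SE), on rescaled values 0.81 ± 0.16 and 0.25 ± 0.23. In CML mice these steps were 0.40 ± 0.24 (SE, n = 5) and 0.57 ± 0.30 (SE, n = 6). The second includes the CML mouse without a week 8 library, which is not in the other steps. Neighbouring steps share a week 7 or week 8 library, so the steps are given side by side and their difference was not tested.

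Across the transcriptome the TKI step was mostly downward. As deposited, 767 of 10065 genes (7.62%) fell and 0 rose, with an all-gene median of -0.22 and 2846 genes at an unadjusted limma p under 0.05. Rescaling moved the median to 0.03, and 169 of 10244 genes (1.65%) then rose while 271 (2.65%) fell. Thus 0% of the calls were rises as deposited and 38.4% after rescaling, and 266 genes were called on both scales. In CML mice 0 genes passed as deposited (625 at an unadjusted limma p under 0.05), against 142 rises (1.39%) and 108 falls (1.05%) rescaled. The difference between the cohorts in this change, TKI minus CML, passed for 64 genes (0.636%), all lower, and rescaled for 144 higher (1.41%) and 85 lower (0.83%). Without CML mouse 487 it passed for 36 genes (0.358%), all lower, and rescaled for 77 higher and 51 lower (1.25% together). In Control mice 0 genes passed on either scale (251 and 972 at an unadjusted limma p under 0.05).

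Library measures moved with the step. The number of genes at 1 TPM or more fell in 7 of 7 TKI mice, by 676 on average (exact sign-flip p = 0.015625), from 9010 to 10460 genes at week 7 to 8460 to 10194 at week 8. In CML mice it changed by -53.2. The share of TPM held by the 10 most abundant genes rose in 7 of 7 TKI mice. The 7SL RNA gene Rn7s2 alone held 30.7 to 41.7% of TPM at week 7 and 34.3 to 47.8% at week 8. Haemoglobin transcripts held 26.7 to 47.3% of TPM at week 7 and 27.5 to 45.1% at week 8 in TKI mice, and 37.3 to 58.2% and 30.0 to 53.3% in CML mice. For none of 6 library measures did the cohort difference pass (exact permutation p adjusted over the 6 from 0.217 to 0.638). That result depended on single mice. With 1 mouse left out, the unadjusted exact permutation p ran from 0.0091 to 0.245 for genes at 1 TPM and from 0.0091 to 0.248 for log2 size factor. It ran from 0.0061 to 0.427 for the 10 most abundant genes and from 0.013 to 0.164 for haemoglobin. For Rn7s2 and mitochondrial genes it was at lowest 0.206 and 0.27. The TOTO libraries stand apart: 9771 of 10065 genes passed in their own step as deposited, with 62.1 to 70.4% haemoglobin at week 7 and 18.8 to 39.5% at week 8. With TKI and CML mice alone in the model, 2368 genes passed in the TKI step and 675 in the difference as deposited, and 831 and 421 rescaled. With the haemoglobin genes and Rn7s2 removed and the remaining TPM brought to a common sum, 541 genes fell and 27 rose in the TKI step, 413 of them among the 767. The cohort difference then passed for 69 genes lower and 16 higher, 41 of them among the 64. The part that the other measures have in the results was not tested.

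Of the gene lists, the secondary granule genes had the lowest median change. Of 20 genes on the list, 19 had enough signal to test and 15 fell in the TKI step, with a median of -1.23 against -0.22 for all genes (7.62% of all genes fell). Rescaled, 14 of 19 fell (2.65% of all genes), with a median of -0.92. The difference from CML mice passed for 12 of 19 as deposited (median -1.32, background 0.636%) and for 11 of 19 rescaled (median -1.01, background 0.83%), always with the lower change in TKI mice. Without CML mouse 487 these counts were 8 and 9, and without CML mouse 484, which had the highest Ngp and Camp levels of the CML mice, 9 of 18 and 11 of 19. With batch as a term they were 13 and 4. The list's median change per mouse ran from -1.69 to -0.69 in TKI mice and from -0.45 to 0.50 in CML mice, with no overlap. Within batch 2022_A the list's median changed by -1.42 ± 0.22 (SD, n = 4) in TKI mice and by 0.20 in the CML mouse, and within 2022_B by -1.01 ± 0.28 (SD, n = 3) against -0.12 and 0.50. Chil3, Ltbp1, Lyz2 and Serpinb1a did not pass on either scale. Lyz2, the lysozyme that monocytes also make, changed by -0.15 ± 0.21 (SE). In bulk blood, fewer cells of a type and less RNA per cell cannot be told apart.

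Ngp (chromosome 9, 110248815 to 110252086, plus strand, GRCm39, a protein-coding gene of the GENCODE M39 annotation) encodes neutrophilic granule protein, a cathelicidin relative of specific granules. It ranged from 217 to 332 TPM with a median of 296 at week 7 in TKI mice, and from 26.9 to 136 with a median of 70.2 at week 8. No week 8 value reached the lowest value of week 7. Among CML mice it went from 79.2 to 86.3 TPM (480), 402 to 537 (484), 0.284 to 0.439 (487), 11.6 to 8.60 (541) and 7.01 to 11.0 (542). Control mice had 0.143 to 0.820 TPM at week 7, so mouse 487 lay at Control level while mouse 484 lay above all TKI mice. The step was -2.10 ± 0.26 (SE, limma adjusted p = 9.4e-06) in TKI mice and differed from that of CML mice by -2.28 ± 0.40 (SE, adjusted p = 0.0039), rescaled by -2.0 ± 0.33 (SE, adjusted p = 0.0051). Within batch 2022_A the TKI mean was -2.41 ± 0.69 (SD, n = 4) against 0.42 in the only CML mouse, and within 2022_B it was -1.70 ± 0.51 (SD, n = 3) against 0.16 and 0.58.

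Camp (chromosome 9, 109676442 to 109678685, minus strand, protein coding), the cathelicidin antimicrobial peptide, fell too. Its TKI range was 61.6 to 86.5 TPM (median 78.2) at week 7 and 9.33 to 33.9 (median 21.2) at week 8. The CML mice went from 17.2 to 15.7 TPM (480), 90.2 to 104 (484), 0.128 to 0.0658 (487), 1.41 to 1.98 (541) and 1.73 to 2.22 (542). The weeks did not overlap in TKI mice, and no CML change exceeded 0.31 on the log2 scale. CML mice 487, 541 and 542 started too low for a fall of 2.0 on that scale. Camp fell by 2.0 ± 0.20 (SE, limma adjusted p = 8.5e-07), and the difference between cohorts was -2.11 ± 0.31 (SE, adjusted p = 0.00064).

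Further genes on the secondary granule list fell in 7 of 7 TKI mice. Ltf (chromosome 9, 110848339 to 110871835, plus strand, protein coding), the iron binder lactoferrin, went from 104 to 176 TPM (median 156) at week 7 to 25.2 to 59.3 (median 40.2) at week 8, a step of -1.86 ± 0.21 (SE, limma adjusted p = 3e-06) and a cohort difference of -1.71 ± 0.32 (SE, adjusted p = 0.0072). Lcn2, the siderophore binder lipocalin 2, went from 144 to 267 TPM (median 213) to 32.2 to 115 (median 57.6), with a cohort difference of -1.77 ± 0.35 (SE, adjusted p = 0.013), which without CML mouse 487 was -1.60 (adjusted p = 0.06). Neither gene's week 8 range touched its week 7 range. Mmp9, gelatinase B, fell from a median of 80.6 to 24.7 TPM, with a step of -1.36 ± 0.16 (SE) and a cohort difference of -1.27 ± 0.25 (SE, adjusted p = 0.012). The collagenase Mmp8 and the annexin Anxa1 fell by 1.30 ± 0.23 and 1.23 ± 0.22 (SE), while their cohort differences did not pass (limma adjusted p = 0.089 and 0.11).

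Surface proteins of maturing neutrophils moved with these genes. Cd177, a glycosylphosphatidylinositol-linked neutrophil antigen, had 18.1 to 35.0 TPM (median 29.2) at week 7 and 5.02 to 15.1 (median 6.90) at week 8 in TKI mice. CML mice went from 14.3 to 15.5 TPM (480), 67.9 to 80.2 (484), 0.799 to 5.20 (487), 3.25 to 2.46 (541) and 2.91 to 2.42 (542). The cohort difference was -1.99 ± 0.31 (SE, limma adjusted p = 0.0012). It was -1.62 without mouse 487, whose log2 rise was the largest of the 5 CML mice. Ly6g, the antigen by which mouse neutrophils are usually gated, fell from a median of 11.7 to 3.17 TPM, with a cohort difference of -1.63 ± 0.28 (SE, adjusted p = 0.0033). Itgb2l, an integrin beta chain of neutrophils, fell from a median of 7.86 to 1.48 TPM, with a cohort difference of -1.73 ± 0.21 (SE, adjusted p = 5.8e-05). Cebpe, the transcription factor required for specific granules, fell by 0.98 ± 0.10 (SE), with a cohort difference of -0.89 ± 0.16 (SE, adjusted p = 0.0056).

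**Figure D2:**
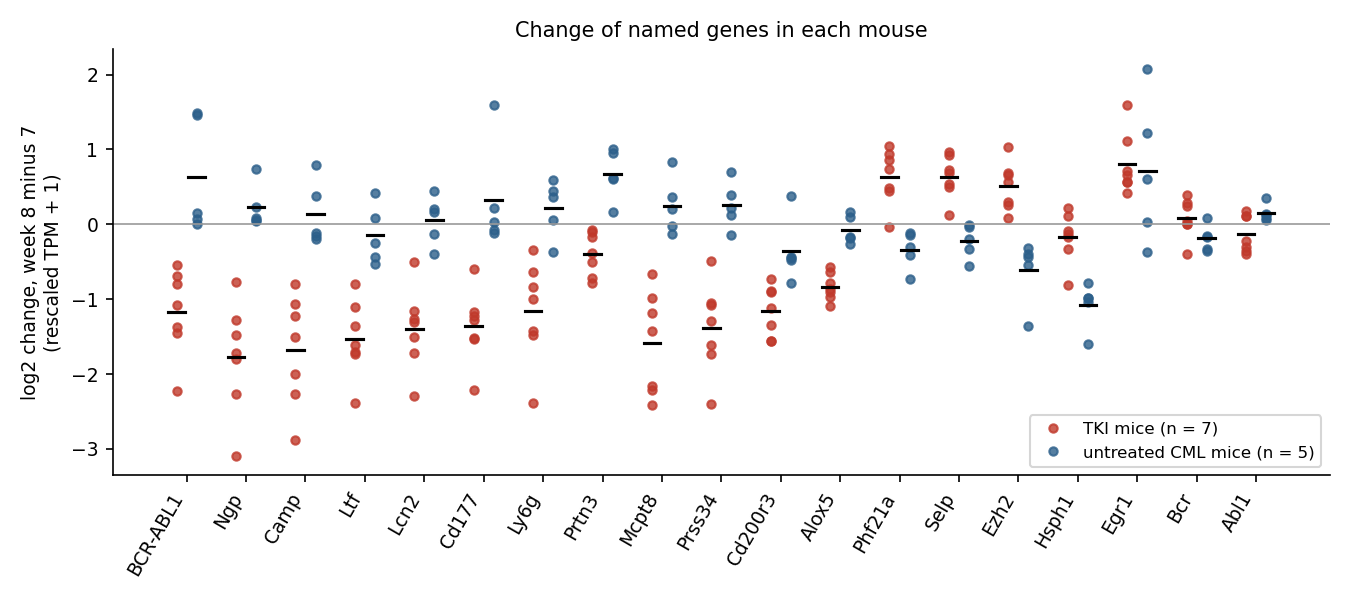
Change of named genes from week 7 to 8 on rescaled values, as log2 of rescaled TPM + 1, with 1 point per mouse (7 TKI and 5 untreated CML mice) and a bar at each cohort's mean. Ngp ran from -3.09 to -0.76 in TKI mice and from 0.04 to 0.74 in CML mice.

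For 4 genes that carry the fall, the RefSeq window of 250 bases before the annotated start is printed 5′ to 3′ on the gene's strand, in build GRCm38.p6. The windows show the letters upstream of 2 genes from each list. Capitals mark matches to a C/EBP motif (TTGCNNAA or, on the other strand, TTNNGCAA) or a GATA motif (AGATAA or TTATCT), which do not overlap each other here. Ngp lies at chr9:110419558-110419807 (+), Camp at chr9:109849457-109849706 (-), Mcpt8 at chr14:56085198-56085447 (-) and Prss34 at chr17:25298144-25298393 (+).
Ngp: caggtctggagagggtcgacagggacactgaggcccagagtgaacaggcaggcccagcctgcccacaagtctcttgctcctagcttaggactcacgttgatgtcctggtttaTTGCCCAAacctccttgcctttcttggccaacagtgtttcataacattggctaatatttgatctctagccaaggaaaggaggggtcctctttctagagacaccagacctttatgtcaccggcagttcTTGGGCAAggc
Camp: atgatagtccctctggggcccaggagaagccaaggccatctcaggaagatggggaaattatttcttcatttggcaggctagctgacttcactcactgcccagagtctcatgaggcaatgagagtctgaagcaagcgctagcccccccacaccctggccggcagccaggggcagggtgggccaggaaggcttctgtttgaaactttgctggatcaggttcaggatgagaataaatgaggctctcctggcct
Mcpt8: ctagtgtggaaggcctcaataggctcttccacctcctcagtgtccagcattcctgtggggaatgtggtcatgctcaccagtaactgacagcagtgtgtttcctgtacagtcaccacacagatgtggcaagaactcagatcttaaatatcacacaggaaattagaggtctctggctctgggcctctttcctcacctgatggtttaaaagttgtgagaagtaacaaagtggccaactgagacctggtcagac
Prss34: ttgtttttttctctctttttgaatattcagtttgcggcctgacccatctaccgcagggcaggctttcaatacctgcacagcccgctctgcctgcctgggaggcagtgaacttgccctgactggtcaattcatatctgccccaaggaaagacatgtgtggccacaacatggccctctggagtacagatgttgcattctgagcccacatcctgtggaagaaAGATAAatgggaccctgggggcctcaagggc
The Ngp window held 2 C/EBP matches, the Prss34 window 1 GATA match, and the Camp and Mcpt8 windows neither. Of all 32851 windows, 9.56% held the C/EBP motif and 9.99% the GATA motif. Of the 15 secondary granule genes that fell, 11 had a window, and 6 of these held the C/EBP motif (Ngp, Ltf, Lcn2, Mmp8, Anxa1 and Ly6g) and 1 the GATA motif (Ltf). Of the 10 basophil and mast cell genes that fell, all had a window, 3 held the GATA motif (Prss34, Fcer1a and Cd200r3) and 3 the C/EBP motif (Fcer1a, Cd200r3 and Cyp11a1). A listed gene counted if any of its windows matched, whereas 9.56% and 9.99% are shares of single windows, so the measures differ. A match in a window is a description of its letters, and no binding was measured.

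Basophil and mast cell genes were the second group. Of 20 on the list 12 could be tested as deposited, and 10 of them fell (7.62% of all genes did), with a median of -1.09. Rescaled, 11 of 15 fell (2.65% of all genes), with a median of -0.78. The cohort difference passed for 5 of 12 as deposited (Mcpt8, Prss34, Fcer1a, Cyp11a1 and Alox5, median -0.83, background 0.636%) and for 5 of 15 rescaled, where Cd200r3 took the place of Fcer1a (median -0.48, background 0.83%). Without CML mouse 487 it passed for 4 on either scale, and without CML mouse 484 for 3. With batch as a term the counts were 5 and 2. The list's median change per mouse ran from -1.27 to -0.72 in TKI mice and from -0.66 to 0.39 in CML mice. Hdc, the histidine decarboxylase counted here and also on the neutrophil list, fell by 1.09 ± 0.15 (SE), while its cohort difference did not pass (adjusted p = 0.13).

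Mcpt8 (chromosome 14, 56319623 to 56322730, minus strand, protein coding), mast cell protease 8, is a marker of mouse basophils. It ranged from 9.50 to 36.7 TPM (median 22.7) at week 7 and from 1.64 to 9.53 (median 4.75) at week 8 in TKI mice. The CML mice went from 8.32 to 8.66 TPM (480), 7.97 to 19.1 (484), 0.591 to 0.580 (487), 1.13 to 0.904 (541) and 0.581 to 0.864 (542). The week 8 range of TKI mice met the lowest week 7 value only at its upper end, and each mouse fell. The step was -1.84 ± 0.19 (SE, limma adjusted p = 1.5e-06) and the cohort difference -2.10 ± 0.30 (SE, adjusted p = 0.00043), rescaled -1.83 ± 0.33 (SE, adjusted p = 0.0091). In batch 2022_A the TKI mean was -1.88 ± 0.65 (SD, n = 4) against 1.17 in the CML mouse, and in 2022_B it was -1.79 ± 0.43 (SD, n = 3) against -0.01 and 0.24.

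Prss34 (chromosome 17, 25517368 to 25519142, plus strand, protein coding), a secreted basophil protease, went from 5.41 to 24.4 TPM (median 14.7) to 1.12 to 6.92 (median 4.06) in TKI mice. CML mice went from 7.44 to 9.36 TPM (480), 3.19 to 7.44 (484), 0.285 to 0.220 (487), 1.09 to 0.791 (541) and 1.11 to 1.51 (542). The cohort difference was -1.87 ± 0.29 (SE, limma adjusted p = 0.00095). Fcer1a, the alpha chain of the high-affinity IgE receptor, fell by 1.22 ± 0.15 (SE) with a cohort difference of -1.05 ± 0.23 (SE, adjusted p = 0.03), which rescaled was -0.86 ± 0.22 (SE, adjusted p = 0.052). Cyp11a1, the side-chain cleavage enzyme of steroid synthesis, fell by 1.18 ± 0.15 (SE) with a cohort difference of -1.19 ± 0.24 (SE, adjusted p = 0.013). Alox5, the 5-lipoxygenase of leukotriene synthesis that neutrophils also express, fell by 1.10 ± 0.13 (SE) with a cohort difference of -1.04 ± 0.20 (SE, adjusted p = 0.0091).

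The weeks around this step are given for both groups. From week 6 to week 7 of the TKI cohort, the first week of drug, Ngp changed by -0.56 ± 0.34 (SE) and Camp by -0.02 ± 0.27, while Mcpt8 changed by 0.67 ± 0.31 and Prss34 by 0.82 ± 0.29. The median of the secondary granule list was -1.10 in that week, and that of the basophil and mast cell list 0.22. For this first week neither rescaled values nor those of CML mice are given beside them. From week 8 to week 10 Mcpt8 changed by 1.30 ± 0.25 and Prss34 by 1.24 ± 0.22, Ngp by 0.54 ± 0.24 and Camp by 0.35 ± 0.22. Rescaled, these later steps were 0.73, 0.72, -0.11 and -0.28. The list medians from week 8 to 10 were 0.60 (secondary granule) and 0.80 (basophil and mast cell), and rescaled 0.05 and 0.31. No test of the difference between steps was made, because they share libraries.

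**Figure D3:**
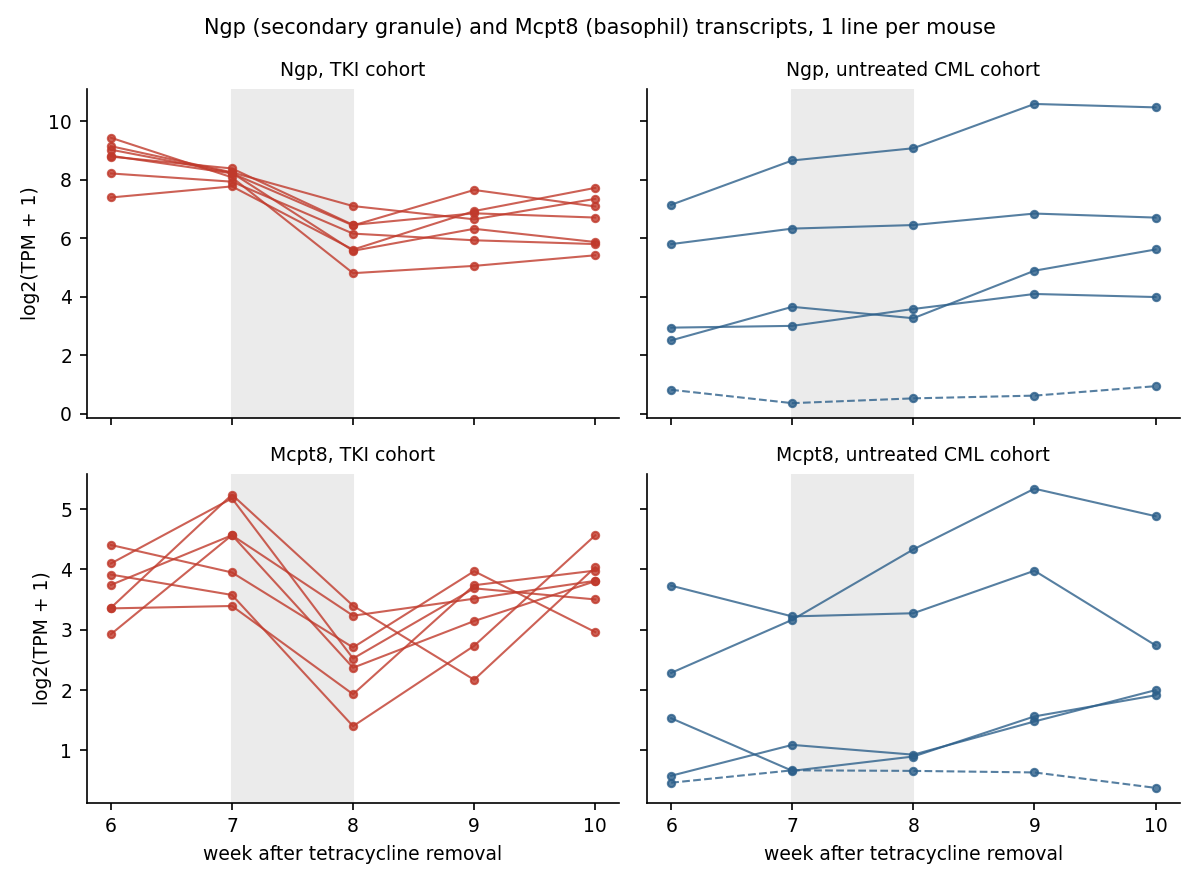
Ngp and Mcpt8 as log2(TPM + 1), as deposited, at weeks 6 to 10, with 1 line per mouse, TKI mice on the left and untreated CML mice on the right, and the step from week 7 to 8 in grey. All 7 TKI mice descend in the band for both genes, and the CML mice start from levels that span 0.284 to 402 TPM for Ngp.

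Genes of mature neutrophils fell in the TKI step, and few of them differed from CML mice. Of 25 tested, 17 fell (median -0.86, beside 7.62% of all genes), and rescaled 11 of 26 (median -0.51, beside 2.65%). Without TKI mouse 507 the first count was 10. The cohort difference passed for Mmp25 and Padi4 (median of the list -0.71, beside 0.636% of all genes), and rescaled for Retnlg as well (median -0.40, beside 0.83%). Mmp25, a membrane-anchored leukocyte protease, fell from 3.42 to 7.38 TPM (median 5.21) to 0.954 to 2.58 (median 1.41), with a cohort difference of -1.26 ± 0.17 (SE, limma adjusted p = 0.00026). Padi4, which citrullinates histones in neutrophil extracellular traps, fell from a median of 13.2 to 4.51 TPM, with a cohort difference of -1.27 ± 0.23 (SE, adjusted p = 0.0052). Retnlg, a resistin-like protein of neutrophils, fell from a median of 590 to 196 TPM with a cohort difference of -1.38 ± 0.34 (SE, adjusted p = 0.058), and rescaled -1.05 ± 0.24 (SE, adjusted p = 0.029). The calprotectin subunits S100a8 and S100a9 fell by 1.39 ± 0.31 and 1.28 ± 0.26 (SE), and their cohort differences did not pass (adjusted p = 0.2 and 0.13). Cxcr2, the receptor that draws neutrophils into tissue, fell by 0.87 ± 0.17 (SE) and changed by -0.46 ± 0.20 in CML mice. The cytokine genes Il1b and Cxcl2 changed by -0.08 ± 0.20 and 0.51 ± 0.26 (SE) and did not pass.

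Of 5 primary granule genes tested, 2 fell as deposited (1 to 3 when 1 mouse was left out, beside 7.62% of all genes). Rescaled, 0 to 1 fell when 1 mouse was left out (beside 2.65% of all genes). Prtn3, proteinase 3, went from 2.50 to 5.41 TPM (median 4.75) to 1.48 to 3.54 (median 2.22) in TKI mice, while it was higher at week 8 in 5 of 5 CML mice. Its TKI step was -0.64 ± 0.13 (SE, limma adjusted p = 0.0028), rescaled -0.39 ± 0.11 (SE, adjusted p = 0.058), its CML step rescaled 0.67 ± 0.13 (SE, adjusted p = 0.018), and the difference -1.29 ± 0.19 (SE, adjusted p = 0.0008). Nkg7, which is on the NK cell list too, fell by 0.58 ± 0.16 (SE) with a cohort difference that did not pass (adjusted p = 0.13).

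Outside these lists, the 64 genes with a lower change in TKI than in CML mice included further genes of myeloid cells. They were named after their values were seen. Among them were Ckap4 (-1.22 ± 0.21, SE), Cebpb (-1.20 ± 0.26), a transcription factor of myeloid cells, Ltb4r1 (-1.12 ± 0.21), a leukotriene B4 receptor, C5ar1 (-1.0 ± 0.23), the receptor of complement C5a, and Il3ra (-0.85 ± 0.17), the alpha chain of the interleukin 3 receptor. Cebpb and C5ar1 did not pass after rescaling (limma adjusted p = 0.086 and 0.055). Stfa2, Stfa3, Ly6a2 and Rps6-ps4 were on the list too, but belong to families of near-identical copies, so their separate values are uncertain. Ly6a2 changed by -1.16 ± 0.26 (SE) in TKI mice with a cohort difference of -1.76 ± 0.41 (SE, adjusted p = 0.038), and rescaled it did not pass (adjusted p = 0.053). As deposited its call ended in 10 of 19 fits that each left out 1 mouse (adjusted p up to 0.17, without CML mouse 487).

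Among lymphoid lists, the NK cell list alone held calls in the TKI step. None of 23 B cell genes and none of 25 T cell genes passed in the TKI step on either scale. At an unadjusted limma p under 0.05 there were 1 and 11 as deposited and 11 and 1 rescaled. The list medians were -0.07 and -0.36 as deposited and 0.26 and -0.12 rescaled. Without TOTO mouse 482, 9 T cell genes fell as deposited, and without TOTO mouse 545 there were 5. At an all-gene median of -0.22, 11 of 17 NK cell genes fell (7.62% of all genes did), with a median of -0.53, whereas rescaled only Gzmb, granzyme B, passed among 18 (-0.52 ± 0.12, SE, limma adjusted p = 0.021). Leaving out 1 mouse moved the first of these counts between 1 and 15, to 1 without TKI mouse 513, 4 without 508 and 5 without 507 or 512. No NK cell gene passed in the cohort difference on either scale (6 and 1 at an unadjusted limma p under 0.05). Of 11 MHC class II genes none passed in TKI mice (0 and, rescaled, 9 at an unadjusted limma p under 0.05). Rescaled, 6 rose in CML mice (median 0.54, beside 1.39% of all genes), among them H2-Oa (0.68 ± 0.11, SE, adjusted p = 0.0069) and H2-Ab1 (0.63 ± 0.12, SE, adjusted p = 0.017). The cohort difference passed for none of the 11 (7 and 5 at an unadjusted limma p under 0.05).

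Red cell and platelet genes depended on the scale. Of 28 red cell membrane and erythroid regulator genes, 12 fell as deposited (median -0.38, beside 7.62% of all genes), such as Epb42 (-0.94 ± 0.22, SE), which encodes a membrane skeleton protein, and 0 passed after rescaling (median -0.06, 4 at an unadjusted limma p under 0.05). Leaving out 1 mouse moved the count of 12 between 3 and 15, with 3 without TKI mouse 507, 6 without 508 and 7 without 502, 512 or 513. None of 4 haemoglobin genes passed or reached an unadjusted limma p under 0.05, with medians of -0.06 and, rescaled, 0.28. The haemoglobin gene copies share sequence, so each is uncertain on its own. Of 25 platelet and megakaryocyte genes 0 passed as deposited (median 0.03, none at an unadjusted limma p under 0.05), and rescaled 1 rose, Selp (median 0.37, beside 1.65% of all genes). Selp, the adhesion molecule P-selectin, ranged from 18.4 to 42.4 TPM (median 26.2) at week 7 and from 24.8 to 40.4 (median 32.6) at week 8 in TKI mice. The weeks overlapped. Its rescaled step was 0.64 ± 0.13 (SE, limma adjusted p = 0.007), and the cohort difference was 0.86 ± 0.20 (SE, adjusted p = 0.029). Leaving out any of 7 mice ended the call of the difference (adjusted p up to 0.075, without CML mouse 487). As deposited the step was 0.30 ± 0.15 (SE, adjusted p = 0.19).

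**Figure D4:**
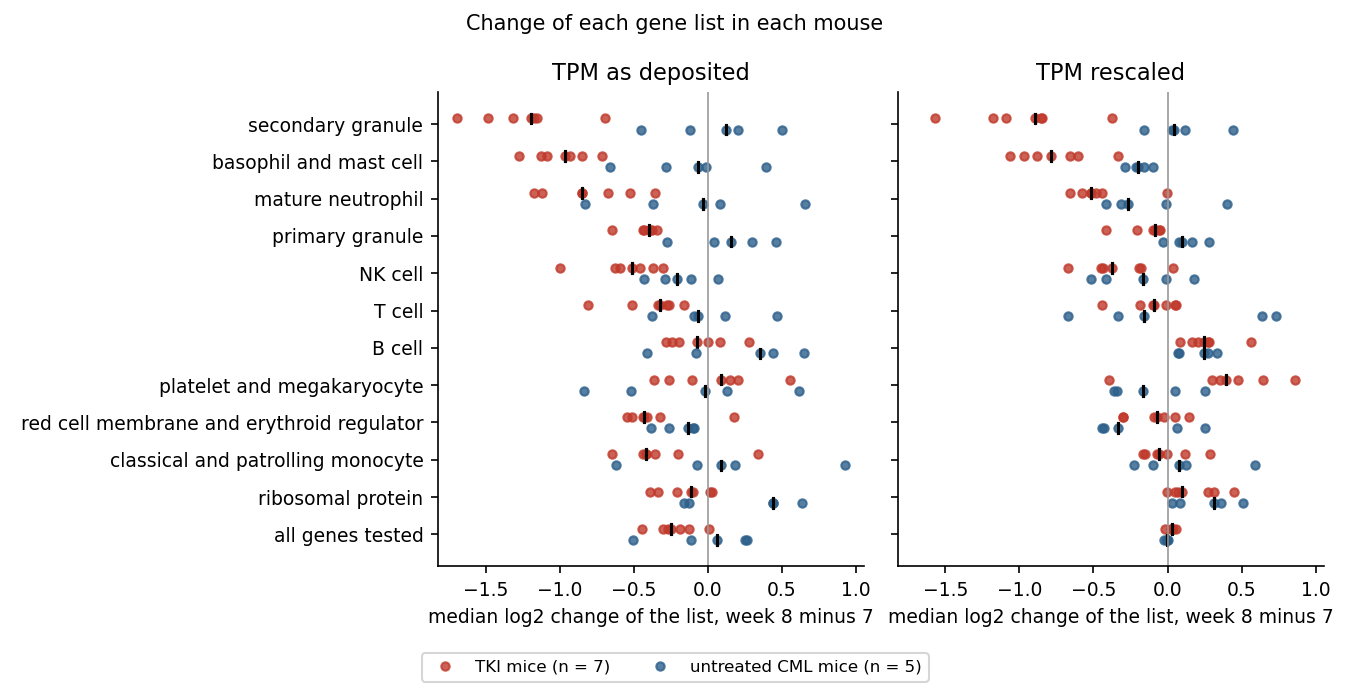
Median log2 change of each gene list from week 7 to 8 in each mouse, as deposited on the left and rescaled on the right, for 7 TKI mice and 5 untreated CML mice, with black bars at the median of the mice. The secondary granule list lies between -1.69 and -0.69 in TKI mice as deposited, and between -1.57 and -0.37 rescaled, below all CML mice on both scales.

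No gene rose in the TKI step as deposited, and the rises named here are rescaled. Under other settings 27 genes rose as deposited without haemoglobin genes and Rn7s2, 5 with TKI and CML mice only, 3 with no filter on low values and 1 with batch as a term. With batch as a term, the rescaled cohort difference passed for 25 genes in place of 229, 7 of them higher. The largest by the naming rule were Egr1, an immediate early transcription factor (0.80 ± 0.22, SE, limma adjusted p = 0.049), and Ttc3, a ubiquitin ligase (0.76 ± 0.19, SE, adjusted p = 0.033). Egr1 changed by 0.71 ± 0.27 (SE) in CML mice as well, and its cohort difference was 0.09 ± 0.35 (SE, adjusted p = 0.92). Phf21a, a subunit of a histone demethylase complex, had 20.8 to 49.5 TPM (median 32.1) at week 7 and 32.3 to 49.2 (median 37.1) at week 8 in TKI mice, ranges that overlap. In CML mice Phf21a went from 37.9 to 36.8 TPM (480), 23.1 to 23.9 (484), 42.5 to 48.2 (487), 68.0 to 25.4 (541) and 33.5 to 22.5 (542). Its rescaled step was 0.64 ± 0.12 (SE, adjusted p = 0.0041), and its cohort difference 0.98 ± 0.18 (SE, adjusted p = 0.011), whereas as deposited the step was 0.30 ± 0.19 (SE, adjusted p = 0.28). Cox5a, a subunit of cytochrome c oxidase, rose by 0.63 ± 0.12 (SE, adjusted p = 0.0043), Elf2, an ETS factor, by 0.63 ± 0.11 (SE, adjusted p = 0.0036), Camsap1, a microtubule minus-end protein, by 0.62 ± 0.12 (SE, adjusted p = 0.0053), and Ctla2b by 0.62 ± 0.17 (SE, adjusted p = 0.038), all rescaled. Cd34, a marker of progenitors and also of endothelium, rose by 0.57 ± 0.09 (SE, adjusted p = 0.00078) with a cohort difference of 0.53 ± 0.13 (SE, adjusted p = 0.046), and was the only one of 4 tested stem and progenitor genes to rise. Several of these calls ended when 1 mouse was left out. The TKI step was lost for Egr1 without any of 11 of the 19 mice (adjusted p up to 0.16, without TKI mouse 502), for Ctla2b without any of 7 (up to 0.14, without TKI mouse 512) and for Ttc3 without any of 6 (up to 0.12, without TKI mouse 507).

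Some genes with a higher change in TKI than in CML mice had fallen in the CML mice. Ezh2, the methyltransferase of Polycomb complex 2, rose by 0.51 ± 0.12 in TKI mice (SE, limma adjusted p = 0.02) and fell by 0.61 ± 0.14 in CML mice (SE, adjusted p = 0.033), a rescaled difference of 1.12 ± 0.19 (SE, adjusted p = 0.0051). CML mouse 541 had the steepest fall of Ezh2, from 38.2 to 8.95 TPM, against 11.2 to 8.65 (480), 7.91 to 7.20 (484), 22 to 18.7 (487) and 16.0 to 11.3 (542). Over the 19 fits that each left out 1 mouse the rescaled Ezh2 difference stayed between 0.93 and 1.19. Hsph1, a heat shock protein, fell in 5 of 5 CML mice by 1.08 ± 0.13 (SE, rescaled, adjusted p = 0.00095). In TKI mice its rescaled change was -0.17 ± 0.11 (SE, adjusted p = 0.42), a difference of 0.90 ± 0.18 (SE, adjusted p = 0.013). As deposited, its TKI step lay between -0.51 and -0.33 over the fits that each left out 1 mouse. On rescaled values, the TKI change of Igtp, an interferon-induced GTPase, exceeded the CML change by 0.96 ± 0.20 (SE, adjusted p = 0.016). For Asph, a hydroxylase, the rescaled difference was 0.89 ± 0.22 (SE, adjusted p = 0.041). Akap7, an anchoring protein of protein kinase A, differed by 0.92 ± 0.21 (SE, adjusted p = 0.033), and Ppil3, a cyclophilin-like isomerase, by 0.90 ± 0.20 (SE, adjusted p = 0.023), both rescaled. As deposited, the difference passed upward for 0 genes. Without CML mouse 541 the difference did not pass for Asph (0.78, limma adjusted p = 0.13), Akap7 (0.75, adjusted p = 0.11) or Ppil3 (0.77, adjusted p = 0.083). Leaving out 1 mouse ended the call of Asph in 12 of 19 fits, of Akap7 in 10 and of Ppil3 in 4. The TKI step of Ezh2 was lost without any of 4 TKI mice (adjusted p up to 0.098, without 507).

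The other programs are given beside the background of 7.62% of all genes falling as deposited and, rescaled, 2.65% falling and 1.65% rising. STAT5 is a transcription factor that BCR-ABL phosphorylates. Among 9 STAT5 target genes 1 fell as deposited (0 to 4 when 1 mouse was left out) and 0 rescaled (1 at an unadjusted limma p under 0.05). The 1 was the phosphatase gene Dusp6 (-0.57 on the log2 scale), and Pim1 changed by -0.19 ± 0.16 (SE). Of 16 cell cycle genes 4 fell as deposited (1 to 7 when 1 mouse was left out), among them Ccnb2 (-0.51 ± 0.11, SE), and rescaled 1 of 17 rose. That gene was Bub1b, a kinase of the spindle checkpoint (0.49 ± 0.13, SE, limma adjusted p = 0.037, with a cohort difference of 0.87 ± 0.20, SE, adjusted p = 0.029). Of 20 glycolysis genes 5 fell (2 to 7 when 1 mouse was left out), and 3 did so rescaled (1 to 5): Hk3, a hexokinase (-0.68 ± 0.14, SE), Slc16a3, a lactate exporter (-0.55 ± 0.13, SE), and Pfkp, a phosphofructokinase (-0.27 ± 0.06, SE). In the cohort difference no glycolysis gene passed on either scale (8 and 6 at an unadjusted limma p under 0.05). None of 15 BCL2 family, 17 cholesterol synthesis, 13 mitochondrially encoded, 75 ribosomal protein and 5 nilotinib target kinase genes passed in the TKI step on either scale. As deposited, the falls numbered 0 to 4, 0 to 7, 0, 0 and 0 to 2 when 1 mouse was left out. At an unadjusted limma p under 0.05 these lists held 6, 7, 0, 0 and 2 genes as deposited and 1, 2, 0, 14 and 1 rescaled. Among 18 immediate early genes Fosl2, a subunit of the AP-1 factor, fell on both scales (-0.85 ± 0.16, SE, and rescaled -0.57 ± 0.13, SE). Of 20 classical and patrolling monocyte genes 2 fell as deposited, Ly6c2 (-0.88 ± 0.24, SE) and Spn (-0.58 ± 0.17, SE), and 0 of 21 passed rescaled (4 at an unadjusted limma p under 0.05).

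The remaining lists are set against the same background of all genes. As deposited, 3 of 12 haem synthesis genes fell (0 to 3 when 1 mouse was left out), among them the coproporphyrinogen oxidase gene Cpox (-0.48), and 0 passed rescaled. Of 21 inflammatory and interleukin 1 genes 4 fell as deposited (1 to 5 when 1 mouse was left out), led by the decoy receptor gene Il1r2 (-0.86), and rescaled only the acute phase gene Saa3 passed and rose (0.59 ± 0.12, SE, limma adjusted p = 0.0094). The inflammatory caspase gene Casp4, on the same list, passed in the rescaled cohort difference (0.74 ± 0.16, SE, adjusted p = 0.021). Of 26 interferon response genes 2 fell as deposited (1 to 4 when 1 mouse was left out), Oas3 (-0.66) and Isg20 (-0.51), whereas rescaled Ifit2 rose (0.43 ± 0.10, SE, adjusted p = 0.021) with a cohort difference of 0.73. Dnajb1, a heat shock co-chaperone, was the only one of 17 unfolded protein response and heat shock genes to fall as deposited (-0.54, adjusted p = 0.045). Among 18 MHC class I genes only H2-T22 passed, rescaled and upward (0.39 ± 0.07, SE, adjusted p = 0.006), and it has near-identical relatives. The transcription factor gene Gata2, on the stem and progenitor list, fell as deposited (-0.51 ± 0.13, SE, adjusted p = 0.016). It is on the basophil and mast cell list too, and its fall is counted there as well. No plasma cell, dendritic cell or eosinophil gene passed in the TKI step on either scale, of 7, 4 and 1 tested as deposited, with 1, 2 and 0 at an unadjusted limma p under 0.05.

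The cohorts did not start alike. At week 7 Ngp spanned 217 to 332 TPM in TKI mice and 0.284 to 402 in CML mice, 4 of which lay below all TKI mice, and the log2(TPM + 1) scale leaves little room for a fall in the lowest of these. The same holds for the transgene, Camp, Mcpt8 and Prss34 in the CML mice with the lowest values. Without the block that pairs the weeks within a mouse, 4 genes passed in the TKI step as deposited and 3 rescaled, and 0 in the cohort difference on either scale. The transgene was not among them (limma adjusted p = 0.39 for the step and 0.92 for the difference, as deposited). The p-values measure the spread between mice, and since TPM carry no read depth, they come without a counting interval.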

How the data were processed

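RNA-seq of mouse whole blood was compared between weeks 7 and 8 in 7 TKI and 5 CML mice, with 3 Control and 4 TOTO mice in the same model. The values are TPM, deposited by the authors for 14605 genes and 298 libraries. The libraries were reverse stranded, per the labels' protocols. The reads were aligned to GRCm39 with STAR and quantified with Salmon, per the submitters' processing notes, with versions not given in the sources used here. Of the genes, 14537 matched GENCODE M39 by identifier, 64 mouse genes did not, and 4 were human rows. TPM summed to 989100 to 999879 per library and keep no read depth, so no counting interval can be given.

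Each library's TPM were used as deposited and after division by a median-ratio size factor over 10282 genes (mean TPM of at least 1 and above 0 in 95% of libraries). Genes with a mean of at least 1 TPM over the week 7 and week 8 libraries of the 19 mice were kept. The change of log2(TPM + 1), with a pseudocount of 1, was computed within each mouse and fitted with 1 term per cohort in limma 3.58.1 (lmFit, eBayes with trend, R 4.3.3 and version 1.17.8 of data.table), with Benjamini-Hochberg adjustment over all genes tested. Residual degrees of freedom were 15, with 9.12 prior degrees as deposited and 3.53 rescaled. Single values were tested by exact permutation or exact sign-flip tests, both two-sided (Python 3.11.15, numpy 2.4.6, pandas 2.3.3, scipy 1.17.1, matplotlib 3.10.9). The pipeline was tested on simulated data.

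The weeks are paired by the mouse id in the labels. Deviations from the group means correlated by 0.53 on average between the weeks of 1 mouse (0.346 to 0.795, over 0.1 in 12 of 12 mice), against -0.0998 between mice.

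The genes named are the 8 largest rises and falls of each comparison that passed, with a mean of at least 5 TPM and 1 sign in at least 6 of 7 TKI mice, up to 4 members of each list by smallest p, and the transgene, Bcr and Abl1. Unnamed gene models were passed over, and places that the values as deposited left empty were filled from the rescaled fit. Other genes named were chosen after their values were seen. The comparison and the 32 gene lists were chosen with earlier results of these data known. Alternatives were another pseudocount, other filters, no block, TKI and CML mice alone, a batch term, week 6 in place of week 7, removal of haemoglobin genes and Rn7s2, and each mouse left out.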

Additional observations from a re-analysis of the deposited data

Results flagged for a closer look

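In 118 groups of mice (the change of a named gene or a list median in 1 cohort), the highest or lowest mouse was compared with its neighbour by Dixon's criterion. It singles out about 1 group in 20 by chance. On rescaled values 11 groups held such a mouse.

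In TKI mice, mouse 514 stood low for Igtp (-0.20 on the log2 scale), Asph (-0.030) and the median of the primary granule list (-0.42). Mouse 511 was the high value for the mature neutrophil list, with a median change of -0.0036, and mouse 507 for the B cell list, with 0.56.

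In CML mice, mouse 487, in which the transgene stood at 0 TPM, had the high value for Cd177 (1.60) and for Ly6a2 (2.14). Mouse 542 was high for Ngp (0.74). Mouse 541 was low for Ezh2 (-1.36) and high for Abl1 (0.35). In mouse 484 the median of the interferon response list changed by -0.78, apart from the other CML mice. With and without mouse 487 the rescaled cohort difference was -1.69 and -1.37 for Cd177, and -1.45 and -1.07 for Ly6a2. With and without mouse 541 it was 1.12 and 0.93 for Ezh2, and with and without mouse 542 it was -2.0 and -1.87 for Ngp. By limma adjusted p, Cd177, Ezh2 and Ngp passed both ways and Ly6a2 neither way.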

How the results depend on the processing

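Counts of called genes depended strongly on the model, and are given here as a percentage of the genes each model tested. By the exact tests, the transgene step and its cohort difference kept direction and side of the threshold with a pseudocount of 0.1, week 6, rescaling and each TKI or CML mouse left out. Without the block that pairs the weeks within a mouse, 0.0397% of genes passed in the TKI step as deposited and 0.0293% rescaled, 0% in the cohort difference on either scale and 0% in the rescaled CML step. The transgene did not pass there (limma adjusted p = 0.39 and, rescaled, 0.72 for the step, 0.92 and 0.82 for the difference). With mean TPM of at least 5 the shares were 9.06% and, rescaled, 5.55% in the TKI step (431 and 278 genes), 0.021% and 3.31% in CML mice, and 0.526% in the difference as deposited (25 genes). With TKI and CML mice only they were 24.2% and 8.18% in the TKI step, 0.051% and 5.57% in CML mice, and 6.89% and 4.15% in the difference. As deposited, 763 of the 767 TKI calls were kept there. With batch as a term 17.8% (1787 genes) passed in the TKI step as deposited, 0.41% (42 genes) in the rescaled CML step and 0.244% (25 genes) in the rescaled difference. With week 6 in place of week 7 the shares were 36.9% and 47.7% in the TKI step, 0% in the rescaled CML step, and 10.5% and 21.9% in the difference. In the difference as deposited, a pseudocount of 0.1 gave 0.318% (32 genes) and no filter 0.876% of 14605 genes. Removing haemoglobin genes and Rn7s2 gave 0.2% (27 genes) in CML mice, 4.21% in the TKI step (27 higher, 541 lower, 413 shared with the 767) and 0.63% in the difference (16 higher, 69 lower, 41 shared with the 64). The rescaled shares were 4.3% (TKI), 2.44% (CML) and 2.24% (difference).

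Leaving out 1 mouse gave 2.52 to 20.3% and, rescaled, 1.6 to 10.7% of genes in the TKI step, 0 to 0.0497% and 0.322 to 8.94% in CML mice, 0.299 to 4.08% and 0.946 to 7.11% in the difference, and 0 to 0.00988% in Control mice. Each of the 7 TKI mice, each of the 5 CML mice, TOTO mice 482 and 545 and Control mouse 488 moved at least 1 of these counts by over 1.5 times. The largest counts came without TOTO mouse 482 (20.3% and 4.08%, as deposited) or without TOTO mouse 545 (10.7%, 8.94% and 7.11%, rescaled). The transgene step stayed between -1.52 and -1.20 and its cohort difference between -2.20 and -1.66. The cohort differences in library measures ranged from -934 to -424 genes at 1 TPM, from -0.49 to -0.23 in log2 size factor, and in percentage points from 4.83 to 8.48 for haemoglobin, from 1.78 to 4.97 for the 10 most abundant genes, from -3.95 to -0.35 for Rn7s2 and from -0.0356 to 0.12 for mitochondrial genes. Secondary granule falls numbered 14 to 16 in the TKI step and 8 to 16 in the difference, as deposited.

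Among the named genes 1 reversed: the rescaled step of Hsph1 in TKI mice was 0.41 from week 6 to 8. With batch as a term, 21 of the 56 rescaled values for named genes no longer passed, and without the block 46. Leaving out 1 mouse at a time ended a call of a named gene in 106 cases rescaled and 11 as deposited. The cause of these changes was not tested. TPM without counts limit what can be said of genes near 1 TPM.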

Other observations

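Histone genes of the H1, H2A, H2B, H3 and H4 families were grouped after values had been seen. Most of them encode replication-dependent histones, whose mature transcripts carry no poly(A) tail, and many are near-identical copies whose separate values are uncertain. Of 58 tested, 24 fell in the TKI step as deposited (7.62% of all genes did), with a median of -0.55, and 6 rescaled (2.65% of all genes), with a median of -0.31. In the difference from CML mice 5 were lower as deposited (background 0.636%) and 4 rescaled (background 0.83%). Of these 4, H1f0 is a replication-independent linker histone, which was also the only histone gene to rise in CML mice (rescaled, 0.61, limma adjusted p = 0.011). The medians of the difference were -0.69 and -0.47, and in CML mice the medians of the step were 0.10 and 0.11.

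The length of DNA that called genes span was described without a test. The 767 genes that fell in the TKI step as deposited had a median span of 24.2 kb, against 22.9 kb for all genes tested. The 169 genes that rose in the rescaled TKI step had a median span of 49.2 kb (168 with a known span), against 22.96 kb for all genes tested on that scale and 29.9 kb for the 271 that fell. The 144 genes higher in the rescaled cohort difference had a median of 67.2 kb and the 85 lower ones 11.6 kb.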
